A study of Mus musculus with 24 samples.

Results

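Bleomycin injury was measured in mouse lung while gapmer 3 was given, by setting 5 bleomycin arrays against 3 PBS arrays, all 8 with gapmer 3. The members were chosen by the labels alone: the 8 arrays are those labelled with gapmer 3, out of 24 arrays in the series. Every named gene of the array was described, 20728 in all, each through the array feature with the highest mean level over the 24 arrays. A gapmer is an antisense oligonucleotide that pairs with an RNA inside the cell and leads an enzyme to cleave it. Gapmers 1 and 3 were both directed at Dnm3os, and a control gapmer served as reference.

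All 24 samples were whole lung of C57BL/6 mice aged 9 to 12 weeks, and the labels name no deletion or transgene. The study crossed the 3 gapmers with PBS or bleomycin into 6 groups: every PBS group had 3 arrays, and every bleomycin group 5. The labels state neither dose nor route, nor the interval between injury and sampling, nor the sex of the mice. Samples carry numbers but no animal is named, and the p-values describe only the spread among samples, which may be technical. Levels are log2 intensities, so a difference of 1 is a change of 2-fold. Array levels of different genes cannot be ranked against each other, since each probe has its own brightness.

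Bleomycin is a chemotherapy drug that breaks DNA. In rodent lung it damages the alveolar lining and is followed by inflammation, recruitment of monocyte-derived macrophages, proliferation and deposition of collagen by fibroblasts, and it is a widely used model of pulmonary fibrosis. Dnm3os is a long non-coding RNA transcribed from the strand opposite to the gene Dnm3, and it is the host transcript of the microRNAs miR-199a-2 and miR-214. MicroRNAs pair with messenger RNAs mainly through their seed, bases 2 to 8, and miR-199a-5p is known for lowering caveolin 1, a brake on TGF-beta signalling in lung fibroblasts.

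The mature products that lie inside Dnm3os are shown because they name the RNAs that the targeted transcript can give rise to. In RefSeq's GRCm38.p6 annotation Dnm3os spans chr1:162217623-162225550 on the plus strand, and all 4 sequences lie inside it. They are written 5′ to 3′ with the seed in capitals.
mmu-miR-199a-5p: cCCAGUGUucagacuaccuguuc
mmu-miR-199a-3p: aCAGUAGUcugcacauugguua
mmu-miR-214-5p: uGCCUGUCuacacuugcugugc
mmu-miR-214-3p: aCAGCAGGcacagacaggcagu
The 4 seeds differ from each other. The arrays measured messenger and long non-coding RNAs, and levels of these microRNAs were not analysed here.

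The array medians lay between 6.48 and 6.50, and correlations between arrays of a gapmer 3 group between 0.982 and 0.998. RNA integrity numbers of the 8 arrays ranged from 9.2 to 9.9. Lung markers were present: all 16 genes of the alveolar type 2 list and all 23 of the endothelial list had mean levels above 6.11, the 25th percentile of all genes. Tissue from outside the alveoli varied between arrays. Krt13, a keratin of oesophagus-like squamous epithelium, read 14.74, 5.64 and 10.64 on the 3 PBS arrays and 6.88, 13.21, 13.69, 13.05 and 13.36 on the 5 bleomycin arrays. The second PBS array and the first bleomycin array were also the lowest for skeletal muscle markers, with list scores of -3.87 and -2.91 against -1.74 to 0.76 on the other 6. The score is the mean, over a list, of the difference from the PBS control gapmer group. Many of the counts below are therefore also given without these 2 arrays.

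**Figure D1:**
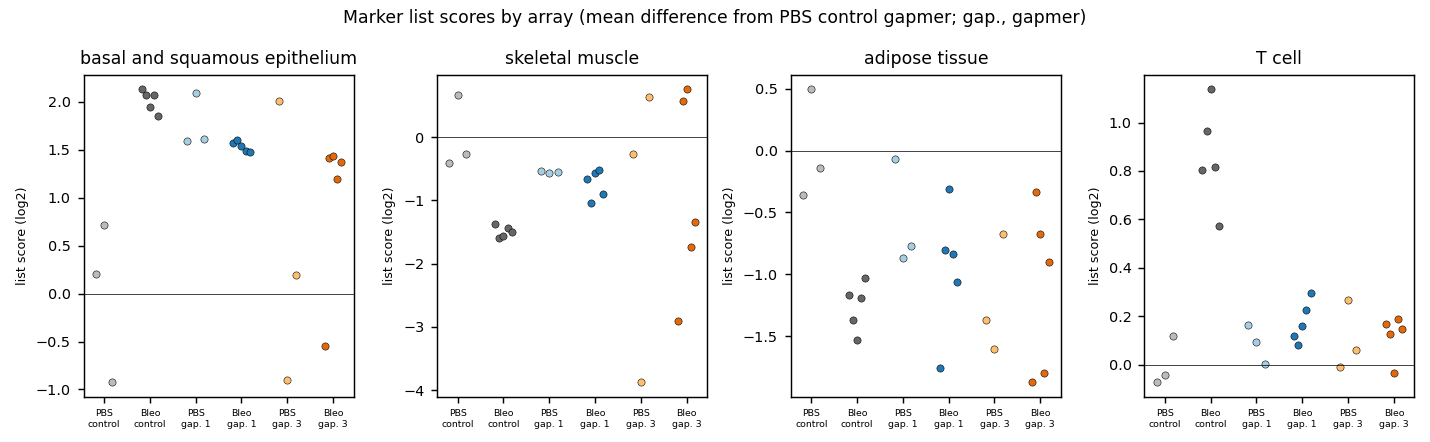
List scores on the log2 scale (vertical axis, mean difference from the PBS control gapmer group) for 4 marker lists on each of the 24 arrays, with groups on the horizontal axis and 1 point per array. The skeletal muscle score of the gapmer 3 arrays runs from -3.87 to 0.76, and the T cell score is highest on the 5 arrays of bleomycin with the control gapmer, 0.57 to 1.14.

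Dnm3os itself was close to the lower end of the array's range under gapmer 3. Its level was 6.12, 6.22 and 5.95 on the PBS arrays and 6.29, 6.26, 6.26, 6.42 and 6.78 on the bleomycin arrays. Every bleomycin array lay above every PBS array, by a mean of 0.31. A two-sided exact permutation test gave p = 0.0357, the smallest that 5 against 3 arrays allow, and 0.0536 after Benjamini-Hochberg adjustment over the 3 Dnm3os features. The feature next in level differed by 0.46 (exact p = 0.0357) and the third by 0.01 (exact p = 0.786). Leaving out any of the 8 arrays in turn left a difference of 0.21 to 0.37. The smaller design cannot reach p under 0.05 in this exact test, whatever the values, so its p-values carry no result. In the fit over all genes the rise under gapmer 3 was not called (adjusted p = 0.11), while under the control gapmer Dnm3os rose by 0.56. The difference between the 2 responses was -0.25, with a 95% interval from -0.61 to 0.11. Dnm3, the gene on the opposite strand, was 0.17 lower with bleomycin under gapmer 3 and was not called (adjusted p = 0.71).

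A broad injury response was measured under gapmer 3. Of 20728 genes, 1455 were called higher with bleomycin (7.02%) and 1420 lower (6.85%), where a call is an adjusted p under 0.05 in limma's moderated test, adjusted by Benjamini-Hochberg over all genes. More than 2-fold, 189 genes rose and 50 fell. Without the 2 arrays that stood apart the counts were 951 and 736, and without the second PBS array alone 829 genes were called lower. More than 2-fold changes were then 173 and 51, so most of the loss lay among small changes. Under the control gapmer 3003 genes were called higher (14.5%) and 3998 lower (19.3%), and under gapmer 1 1317 higher (6.35%) and 649 lower (3.13%).

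The response under gapmer 3 was then set against that under the control gapmer, which shares no array with it. The difference of the 2 responses was called for 641 genes: 301 had a higher value under gapmer 3 (1.45%) and 340 a lower value (1.64%). Of the 340, 315 had risen under the control gapmer, and of the 301, 275 had fallen there. Without the 2 arrays that stood apart, 157 were called higher and 180 lower. The count also moved with single arrays of either arm: it was 246 without PBS control gapmer replicate 1 and 302 without replicate 3, and 278 and 391 without PBS gapmer 3 replicates 1 and 2. It was 424, 312, 359 and 1161 without bleomycin control gapmer replicates 1, 2, 4 and 5. Of 592 genes raised over 2-fold under the control gapmer, 384 were called higher under gapmer 3 (64.9%). Their medians were 1.42 and 0.80, in that order. Of 291 genes lowered over 2-fold under the control gapmer, 178 were called lower under gapmer 3 (61.2%), with medians of -1.18 and -0.58. A choice on the control arrays itself favours a larger control response. The 116 genes raised over 2-fold under gapmer 1 were chosen on the means of arrays that neither response uses. Of them 115 were called higher under gapmer 3, with a median of 1.37 against 1.99 under the control gapmer. Gapmer 1 is directed at the same RNA, and genes that rose little under it cannot be among the 116. Of 23 genes lowered over 2-fold under gapmer 1, 18 were called lower under gapmer 3, with medians of -1.32 and -1.75.

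**Figure D2:**
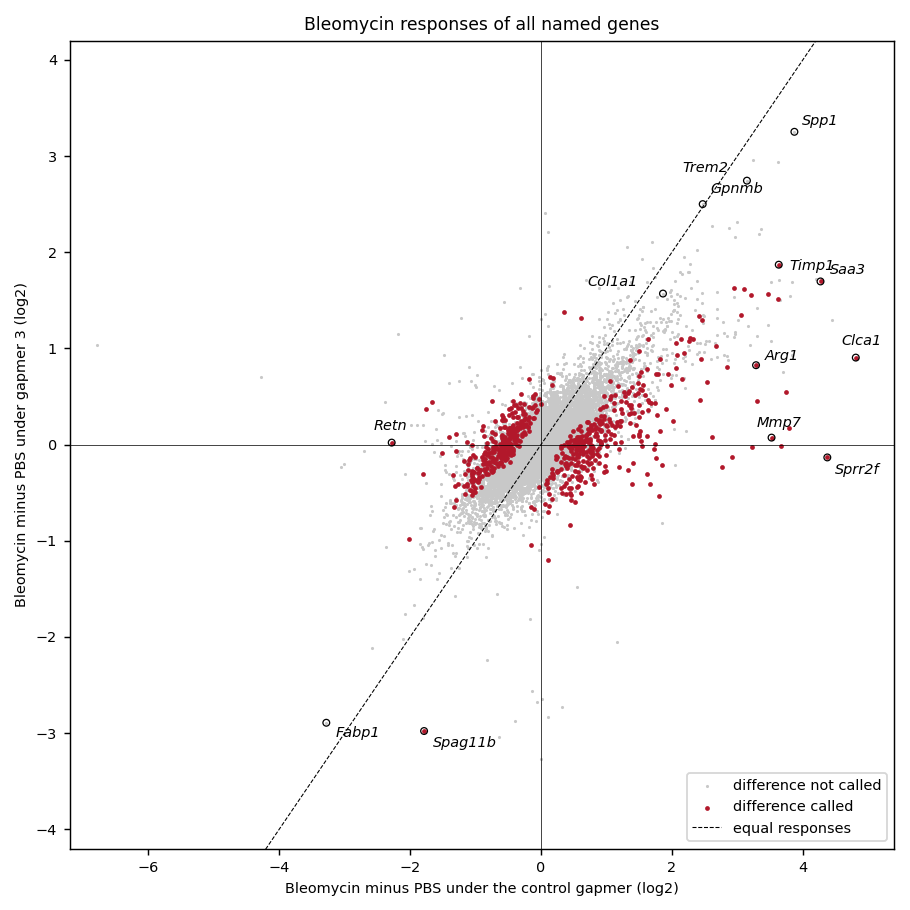
Bleomycin minus PBS difference (log2) under the control gapmer (horizontal) and under gapmer 3 (vertical) for all 20728 named genes, 1 point each. Red points are the 641 genes whose 2 responses differed; the dashed line marks equal responses, and genes such as Gpnmb lie on it while Sprr2f and Mmp7 lie near 0 on the vertical axis.

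Matrix genes rose under gapmer 3. Of 27 measured genes of fibrillar collagen and its maturation, 17 were called higher and none lower, with a median of 0.50 against -0.01 over all genes. Of 30 genes of elastic fibres and provisional matrix, 18 were higher and none lower, with a median of 0.55. Without the 2 arrays that stood apart these counts were 15 and 14. Under the control gapmer 20 and 19 were higher and 1 and 2 lower, with medians of 0.58 and 0.94. No collagen gene had a called difference between the responses. Of the elastic and provisional matrix genes 2 were called lower and 1 higher, and 1 lower without PBS control gapmer replicate 1. At an unadjusted p under 0.05 in limma the difference was lower for 7 genes of each list, and higher for 2 and 3. The collagen scores of the bleomycin arrays were 0.34 to 0.61 under gapmer 3 and 0.65 to 0.88 under the control gapmer. On the PBS arrays they were -0.16 to -0.01 and -0.065 to 0.10. The elastic and provisional matrix scores were 0.46 to 0.65 and 0.81 to 1.07 with bleomycin, and -0.20 to -0.06 and -0.03 to 0.035 with PBS. In bulk tissue a change in the number of cells of a type and a change of RNA per cell cannot be told apart.

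Col1a1, the first chain of collagen I, read 13.04, 12.85 and 12.73 on the PBS arrays and 14.54, 14.42, 14.15, 14.61 and 14.50 on the bleomycin arrays. The groups did not overlap, and the rise was 1.57 with a standard error of 0.15, or 2.97-fold (adjusted p = 2.8e-07). It was 1.86 under the control gapmer, and the difference of -0.29 was not called, with an interval from -0.73 to 0.14. The other fibrillar chains rose as well: Col3a1 by 1.39, Col1a2 by 0.97 and Col5a2 by 1.41. Lox, which crosslinks collagen and elastin, rose by 0.84 (adjusted p = 0.042), and that call ended without any 1 of 6 of the 8 gapmer 3 arrays, with rises of 0.73 to 0.88.

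Eln, the gene of elastin, was among the largest rises. It read 9.44, 9.30 and 8.99 with PBS and 12.39, 12.25, 11.48, 12.55 and 12.22 with bleomycin, a rise of 2.94 or 7.65-fold. Under the control gapmer it rose by 3.62, and the difference of -0.69 had an interval from -1.76 to 0.38. Fn1, fibronectin, rose by 1.03, Ltbp2, a binding protein of elastic fibres, by 1.43, and the matricellular gene Ccn4 by 1.53. Tnc, tenascin C of provisional matrix, rose by 1.08, against 2.26 under the control gapmer. That difference of -1.18 was called (adjusted p = 0.002).

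Spp1, osteopontin, a matrix cytokine made by macrophages of scarred lung, had the largest rise of the genes named here. Its level was 10.23, 10.20 and 10.06 with PBS and 14.04, 13.54, 12.97, 13.26 and 13.28 with bleomycin. The lowest bleomycin array stood well above the highest PBS array, and the rise was 3.25 (standard error 0.20, 9.53-fold, adjusted p = 9.7e-10). Under the control gapmer it was 3.87. The difference of -0.62 was not called (adjusted p = 0.24), with an interval from -1.21 to -0.03.

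Proteases and their inhibitors were split. Of 23 measured members 9 were called higher and 1 lower under gapmer 3, and 16 higher under the control gapmer, with medians of 0.24 and 0.92. Mmp12, the macrophage elastase, rose by 2.24 and Mmp2, a gelatinase of fibroblasts, by 1.41. Timp1, an inhibitor of these enzymes, read 10.16, 10.32 and 9.78 with PBS and 12.41, 11.92, 11.51, 11.97 and 11.99 with bleomycin. Its rise of 1.87 was 3.66-fold, against 3.63 on the log2 scale under the control gapmer. The difference was -1.76 (adjusted p = 0.021). The call ended without the first PBS control array (-1.75), the first PBS gapmer 3 array (-1.73) or the second (-1.65).

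Mmp7, matrilysin, an epithelial protease, showed no such rise. It read 5.79, 5.71 and 5.73 with PBS and 5.67, 5.76, 6.11, 5.81 and 5.74 with bleomycin under gapmer 3, none above 6.11, the 25th percentile of gene means. Under the control gapmer it rose by 3.52, and the difference was -3.45 (interval -4.34 to -2.56, adjusted p = 0.00011).

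Macrophage genes rose. Of 23 genes of scar-associated and monocyte-derived macrophages 18 were higher and 1 lower, with a median of 0.96 under gapmer 3 and 1.16 under the control gapmer. Without the 2 arrays that stood apart 16 were higher. For 1 gene of the list the response was called smaller than under the control gapmer, and for 3 without the fifth bleomycin control array. Trem2, a lipid-sensing receptor of these cells, read 10.38, 10.33 and 10.01 with PBS and 13.26, 13.10, 12.57, 13.05 and 12.96 with bleomycin. The rise of 2.74 was 6.70-fold. Gpnmb, a membrane glycoprotein of the same cells, read 9.49, 8.95 and 9.16 with PBS and 11.78, 11.50, 11.66, 11.76 and 11.81 with bleomycin. Its rise of 2.50 differed from that under the control gapmer by 0.03, with an interval from -0.43 to 0.49. Ms4a7, a marker of monocyte-derived macrophages, rose by 1.95, and Ccl12, a monocyte chemokine, by 2.03.

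Of 15 alveolar macrophage genes 5 rose and 3 fell, with a median of 0.17, and 1 fell without the second PBS array. The largest called change of the list was a fall, that of Krt79. Among those that rose were Itgax, the integrin CD11c, by 1.10 and the inhibitory receptor Cd200r1 by 1.31. Arg1, arginase 1, a marker of alternative activation, behaved otherwise. It read 8.39, 7.01 and 7.15 with PBS and 8.50, 8.66, 7.89, 8.17 and 8.50 with bleomycin, so the groups overlapped through the first PBS array. The difference of 0.83 was not called (adjusted p = 0.097), and without that array it was 1.26 and called. Under the control gapmer Arg1 rose by 3.29, and the difference of the responses was -2.46 (adjusted p = 0.0062). Retnla, another gene of alternative activation and also a member of the airway secretory and goblet list, rose by 1.56 against 3.22. The difference of -1.66 was called (adjusted p = 0.02), but not without the first PBS control array (-1.58).

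Genes of the TGF-beta pathway, the main profibrotic signal, moved both ways: of 30 measured 10 rose and 6 fell, with a median of 0.14. Without the third PBS array, or without the 2 arrays that stood apart, 6 rose. Tgfb1, the ligand, was 0.05 lower and was not called (adjusted p = 0.89), and its 10 features were of mixed sign, from -0.05 to 0.57. Inhba, which forms activin A, rose by 1.03 (adjusted p = 0.014), and by 1.01 with no call without the second PBS array. Grem1, an antagonist of bone morphogenetic proteins, rose by 2.19.

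No contractile gene of myofibroblasts was called higher. Of 16 measured 2 were lower under gapmer 3, while 6 were higher and 1 lower under the control gapmer. Without any 1 of 5 of the 8 gapmer 3 arrays 1 was lower. In limma, the tool run, 1 was higher and 4 were lower at an unadjusted p under 0.05. Acta2, smooth muscle alpha actin, the usual myofibroblast marker, read 13.56, 13.44 and 13.33 with PBS and 13.26, 13.27, 13.11, 13.41 and 13.22 with bleomycin. The groups overlapped, and the difference of -0.19 was not called (adjusted p = 0.43). It rose by 0.89 under the control gapmer, and the difference of -1.08 was called (adjusted p = 0.0041). The 10 features of Acta2 lay between -0.19 and 0.13 under gapmer 3. Synpo2, an actin-binding protein of smooth muscle, fell by 0.54. Smooth muscle of airways and vessels also holds these transcripts, and its part in the result was not tested.

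Of 23 resident fibroblast genes 5 rose and 5 fell, against 2 and 9 under the control gapmer. Without the third PBS array 3 rose. Inmt, a methyltransferase of alveolar fibroblasts, fell by 1.07, and Tcf21, a transcription factor of lipofibroblasts, by 0.80. Aspn, asporin of matrix-producing fibroblasts, rose by 0.58.

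**Figure D3:**
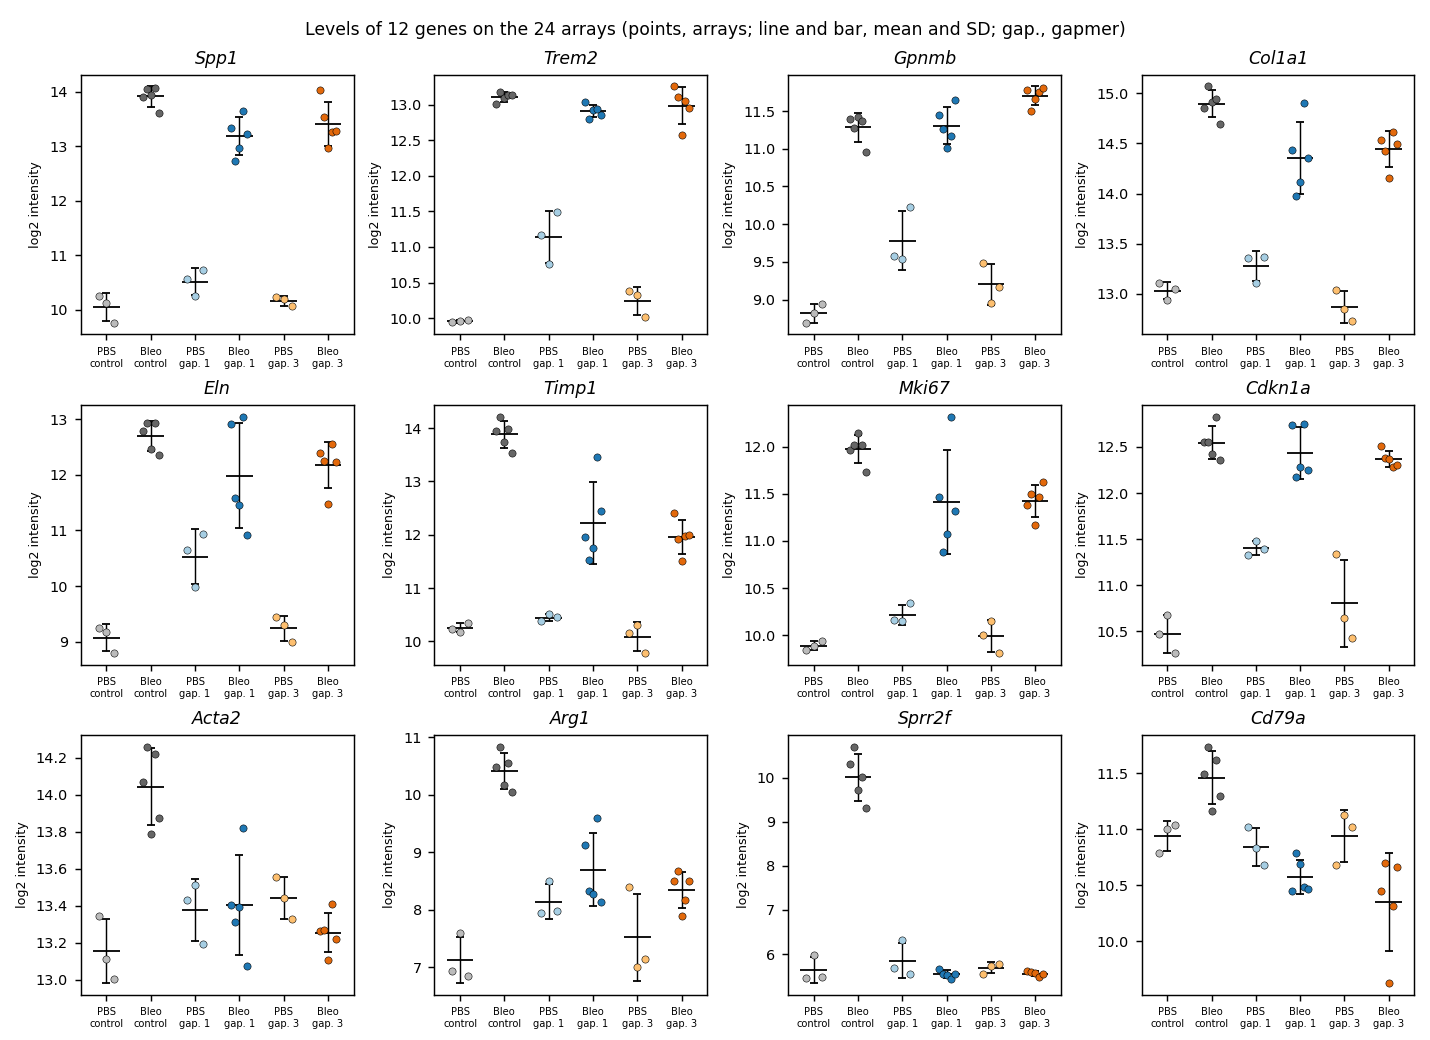
Log2 intensity (vertical axis) of 12 genes on the 24 arrays by group (horizontal axis), with points for arrays and a line and bar for the mean and SD. Gpnmb, Trem2 and Col1a1 separate bleomycin from PBS under gapmer 3, while Acta2 overlaps and Sprr2f stays between 5.47 and 5.78.

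The alveolar epithelium showed small changes. Of 16 alveolar type 1 genes 3 rose and 4 fell under gapmer 3, against 3 and 11 under the control gapmer, with medians of -0.19 and -0.58. Under gapmer 3 1 rose without the first PBS array, the first bleomycin array or both arrays that stood apart. Hopx, a type 1 transcription cofactor, fell by 0.57, and Spock2, a proteoglycan of these cells, rose by 1.22. Ager, the receptor RAGE of type 1 cells, was 0.25 lower and was not called (adjusted p = 0.34). Of 16 type 2 genes 5 rose and none fell, with a median of 0.17, and 2 rose without the 2 arrays that stood apart or the second PBS array alone, and 3 without the third. Ctsh, a protease that processes surfactant protein, rose by 0.81. Sftpc, surfactant protein C, read 17.96 on average with PBS and 17.99 with bleomycin, near the upper end of the array's range, and its difference of 0.02 was not called.

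Genes of the transitional state that injured alveolar cells pass through rose: 9 of 18 were higher and none lower, against 16 higher under the control gapmer. Without the 2 arrays that stood apart 7 were higher under gapmer 3. Krt8, a keratin of this state, rose by 0.43, and Clu, clusterin, by 0.68. Cldn4, a tight junction claudin, rose by 1.10 against 2.32. That difference of -1.22 was called (adjusted p = 0.016), but not without the first PBS gapmer 3 array (-1.10). Lcn2, lipocalin 2, rose by 1.32.

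Squamous and goblet genes responded less than under the control gapmer. Of 28 basal and squamous genes 1 was called higher under gapmer 3 and 19 under the control gapmer, with medians of 0.37 and 2.06. The count under gapmer 3 turned on single PBS arrays: 7 were higher without the first and none without the second. The difference was called lower for 7, with or without the 2 arrays that stood apart. The same genes varied widely between the 3 PBS gapmer 3 arrays, whose list scores were 2.01, -0.90 and 0.19. Krt5, the basal cell keratin, read 12.52, 7.11 and 8.98 with PBS and 8.11, 11.63, 11.58, 11.16 and 11.66 with bleomycin. Its difference of 1.29 was not called (adjusted p = 0.41), and without the first PBS array it was 2.79 and called. The part of oesophageal or tracheal tissue in these values was not tested.

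Sprr2f, a cornified envelope protein, did not vary in that way. It read 5.55, 5.73 and 5.78 with PBS and 5.61, 5.59, 5.56, 5.47 and 5.55 with bleomycin under gapmer 3, all below the 25th percentile of gene means. With the control gapmer its level was 5.46, 5.98 and 5.47 with PBS and 10.31, 10.70, 9.72, 10.02 and 9.31 with bleomycin. The difference of the responses was -4.51 (interval -5.13 to -3.89, adjusted p = 5.3e-09). Krt17, a keratin of wounded epithelium, rose by 0.54 against 3.75, a difference of -3.21 (adjusted p = 3.4e-09). The small rise under gapmer 3 was not called without the first or the second PBS array (0.49 and 0.52). Spink8, a protease inhibitor, and Alox12e, a lipoxygenase of squamous epithelium, differed by -3.68 and -3.04, and neither was called under gapmer 3. For Mmp7, Sprr2f and Spink8 the PBS levels lie at the dim end of the array, where intensity holds background as well as signal, so their rises under the control gapmer are differences of measured intensity and may understate the change in RNA.

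Of 21 airway secretory and goblet genes 4 rose and 4 fell under gapmer 3, while 11 rose under the control gapmer. Without the second PBS array 2 fell, without the third 1, and without the 2 arrays that stood apart 2. For 9 of them the difference was called lower, for 6 without the 2 arrays that stood apart, for 4 without the first PBS control array and for 5 without the second or the third PBS gapmer 3 array. With PBS the scores of this list were already higher under gapmer 3, 0.22 to 0.34, than under the control gapmer, -0.06 to 0.06. With bleomycin they were 0.265 to 0.50 and 0.93 to 1.13. Clca1, a secreted goblet cell protein, rose by 4.81 under the control gapmer and differed by 0.90 with no call under gapmer 3. Its dimmer feature was 1.43 higher with bleomycin under gapmer 3. The difference of -3.91 was called (adjusted p = 0.027), and not without any 1 of 5 arrays of the 2 arms, with values from -3.31 to -3.97. Of 19 genes of motile cilia 5 fell and none rose, with a median of -0.26, and 2 fell without the second PBS array, 3 without the third and 3 without the 2 arrays that stood apart. Tppp3, a tubulin-binding protein of ciliated cells, fell by 0.80.

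The promoter stretches of Mmp7 and Sprr2f are shown because both genes rose under the control gapmer, were not called under gapmer 3, and hold the letters TGAGTCA, a known binding motif of AP-1, before their start. They are from RefSeq's GRCm38.p6 table, 5′ to 3′ on the gene's strand with the motif in capitals, at chr9:7692017-7692043 (plus) and chr3:92364980-92365006 (plus).
Mmp7: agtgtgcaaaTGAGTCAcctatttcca
Sprr2f: aactgaatatTGAGTCAcagtgctcaa
The motif starts 63 bases before the start of Mmp7 (of its 2 listed promoters) and 197 before that of Sprr2f. Searched on both strands in the 250 bases before the start, it was found in 5.16% of 27025 genes, and in 2 of the 4 table-matched genes among those whose response under gapmer 3 was furthest below that under the control gapmer. Those 2 are Mmp7 and Sprr2f, shown here because they hold the motif, and 4 genes are too few to compare with the share over all genes. A match is a description of the letters and not a measured binding site.

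Endothelial genes fell. Of 23 measured 12 were lower and 1 higher under gapmer 3, against 21 lower under the control gapmer, with medians of -0.43 and -0.63. Without the second PBS array 7 were lower, and without both arrays that stood apart 8, and the 1 called higher was lost without any of the 8 arrays. Ednrb, the endothelin receptor of alveolar capillaries, fell by 1.04, Eng, a TGF-beta co-receptor, by 0.90, Kdr, the main VEGF receptor, by 0.74 and Esm1, a proteoglycan of tip cells, by 1.57. None of the 23 genes had a difference from the control gapmer called by limma, while 5 were higher at an unadjusted p under 0.05, and the median difference was 0.24. Without the fifth bleomycin control array 2 were called higher.

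Lymphocyte genes parted from the control gapmer. Of 22 T cell genes 5 rose and 2 fell under gapmer 3, with a median of -0.01, while 19 rose under the control gapmer, with a median of 0.75. The gapmer 3 counts rested on single arrays: 3 rose without any 1 of 7 of the 8 gapmer 3 arrays, and 1 fell without any 1 of 6 of them. The same counts, 3 and 1, were left without the 2 arrays that stood apart. For 11 the difference was called lower, also without the 2 arrays that stood apart. The T cell score of the 5 bleomycin arrays was -0.04 to 0.19 under gapmer 3 and 0.57 to 1.14 under the control gapmer. Genes of thymus and lymphoid tissue moved with it: their score was -0.13 to 0.05 and 0.28 to 1.66 on the same arrays, and 2 of 10 measured genes had a difference called lower. These were Glycam1 and Madcam1, ligands for lymphocyte homing, at -2.85 and -1.47. The third bleomycin control array was highest for both scores, and it alone of the 16 arrays with the control gapmer or gapmer 3 held high levels of the thymocyte genes Rag1 (10.22, against 5.53 to 5.84 on the others) and Dntt (11.56, against 6.73 to 7.44). Without that array the difference was called lower for 13 T cell genes. The part of lymphoid tissue in the T cell values of the other arrays was not tested. Ccr7, the homing receptor of naive T cells and mature dendritic cells, fell by 0.51 under gapmer 3 and rose by 0.61 under the control gapmer. The difference was -1.12 (adjusted p = 0.00056). Pdcd1, the checkpoint receptor PD-1, rose by 0.94 against 2.08, a difference of -1.15 (adjusted p = 0.014). Cxcr3, a receptor of effector T cells, rose by 0.57.

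Cd8a, the co-receptor of cytotoxic T cells, was called lower by 2.06, and the call rested on a single value. Its level was 7.68, 12.45 and 7.56 with PBS and 6.89 to 7.34 with bleomycin. Without the second PBS array the difference was -0.44 and not called, the call also ended without any 1 of the 5 bleomycin arrays, and the other 10 features of the gene differed by -0.21 to -0.34. Col23a1, a membrane collagen, was of the same kind: its fall of 2.57 rested on a level of 15.76 on the third PBS array against 10.00 and 10.02 on the others, and its other 2 features fell by 0.64 and 0.37.

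Of 16 B and plasma cell genes 1 rose and 4 fell under gapmer 3, while 8 rose under the control gapmer. None fell without the second or the third PBS array, the bleomycin array numbered 4 or the 2 arrays that stood apart, 1 fell without the third bleomycin array, and the 1 gene called higher was lost without any 1 of 5 arrays. Cd79a, the signalling chain of the B cell receptor, read 10.68, 11.13 and 11.02 with PBS and 10.45, 10.70, 9.63, 10.31 and 10.66 with bleomycin, with overlap at 1 array. Its fall of 0.59 (adjusted p = 0.032) was not called without PBS gapmer 3 replicate 2 or 3 (-0.50 and -0.56) or bleomycin gapmer 3 replicate 3 or 4 (-0.41 and -0.58). The difference from the control gapmer was -1.11 (adjusted p = 0.023), and not called without the first PBS control array (-1.04) or the second PBS gapmer 3 array (-1.02). Of 16 NK and cytotoxic genes 9 fell and none rose, with a median of -0.37, close to -0.33 under the control gapmer. Without the second PBS array 3 fell. Gzma, a granzyme, fell by 1.02 and Klrb1c, the NK receptor NK1.1, by 0.70.

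Cytokines and chemokines rose in part: 14 of 41 were higher and 1 lower, against 26 and 3 under the control gapmer, with medians of 0.33 and 0.89. Without the 2 arrays that stood apart 9 were higher, and the number lower was 0 to 2 without single arrays. The difference from the control gapmer was called lower for 7 of the list and higher for 2. Without the 2 arrays that stood apart these counts were 4 and 2, and without the first PBS control array 3 and 1. Ccl9 and Ccl3, chemokines of myeloid cells, rose by 1.47 and 1.19. Ccl2, the main monocyte chemokine, rose by 1.35 against 3.06. The difference of -1.71 was called (adjusted p = 0.042), and ended without any 1 of 14 of the 16 arrays, with values from -1.53 to -1.86. Cxcl5, an epithelial chemokine for neutrophils, rose by 0.65 against 2.53, a difference of -1.88 (adjusted p = 0.00013). Il6 was 0.47 higher and was not called (adjusted p = 0.3), against a rise of 2.43, and the difference of -1.96 was called (adjusted p = 0.0087). Saa3, an acute phase protein, rose by 1.70 against 4.27. The difference of -2.57 was called (adjusted p = 0.016), but not without the first PBS control array (-2.30).

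Complement and acute phase genes rose in 12 of 26 cases with none lower, with a median of 0.47. Without the 2 arrays that stood apart 8 rose. C1qb, a chain of the complement starter C1q, rose by 1.55, and C3ar1, the C3a receptor, by 1.61. Of 20 antigen presentation genes 6 rose and none fell, among them H2-Ab1, a class II chain, by 0.48. Without the same 2 arrays 4 rose. Of 29 interferon response genes 2 rose and 2 fell. Without the third bleomycin array 5 rose, and 1 fell without any 1 of 4 arrays and none without the 2 arrays that stood apart. Oas1a, which senses double-stranded RNA, rose by 0.71.

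Cell cycle genes rose. Of 33 measured 26 were higher and none lower under gapmer 3, with a median of 0.90, against 29 higher, 1 lower and 1.40 under the control gapmer. Without the 2 arrays that stood apart 23 were higher. No difference between the responses was called by limma in this list, while at an unadjusted p under 0.05 it was lower for 15 of the 33 and higher for none. Mki67, the Ki-67 antigen of dividing cells, read 10.01, 10.15 and 9.81 with PBS and 11.38, 11.50, 11.17, 11.46 and 11.63 with bleomycin. The groups did not overlap, and the rise was 1.44 (standard error 0.20). Ccna2, cyclin A2, rose by 1.58, Prc1, of the spindle midzone, by 1.55 and Top2a, which untangles replicated DNA, by 1.23. For Top2a the difference from the control gapmer was -0.99 (adjusted p = 0.053), and it was called without the third PBS gapmer 3 array (-1.12) or the fifth bleomycin control array (-1.06).

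The 5′ flanks of Top2a and Cdk1, the kinase that starts mitosis, are shown because the cell cycle genes moved together and these hold both motifs known for genes of the late cell cycle: TTTGAA, called the cell cycle homology region, and CCAAT, bound by NF-Y. Both are from RefSeq's GRCm38.p6 table, 5′ to 3′ on the gene's strand, with each motif in either orientation in capitals, at chr11:99024197-99024426 (minus) and chr10:69352913-69353130 (minus).
Top2a: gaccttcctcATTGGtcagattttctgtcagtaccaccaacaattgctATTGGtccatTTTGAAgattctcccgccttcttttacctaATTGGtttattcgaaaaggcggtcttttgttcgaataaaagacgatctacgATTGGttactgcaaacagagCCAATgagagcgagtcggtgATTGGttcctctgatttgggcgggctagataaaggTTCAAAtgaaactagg
Cdk1: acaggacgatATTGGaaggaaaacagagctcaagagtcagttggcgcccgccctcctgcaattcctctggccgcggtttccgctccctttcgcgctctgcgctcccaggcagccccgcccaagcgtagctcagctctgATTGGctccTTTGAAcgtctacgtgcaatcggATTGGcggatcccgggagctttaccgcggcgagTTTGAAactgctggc
Of the 33 cell cycle genes 28 matched the table. In the 250 bases before the start, on either strand, TTTGAA was found in 10 of these 28 (35.7%) and in 18.3% of 27025 genes, and CCAAT in 21 (75.0%) and in 37.5%. The motifs do not overlap in letters. These are shares of letters, and no binding was measured.

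Targets of p53, which bleomycin activates through DNA breaks, rose in 9 of 24 cases and fell in 2, with medians of 0.18 under gapmer 3 and 0.43 under the control gapmer. Without any 1 of 3 of the 8 gapmer 3 arrays 1 fell, and without the 2 arrays that stood apart 7 rose and none fell. Cdkn1a, the cell cycle inhibitor p21, read 11.34, 10.65 and 10.43 with PBS and 12.51, 12.38, 12.37, 12.28 and 12.31 with bleomycin. The rise of 1.57 was 2.96-fold. Gdf15, a stress cytokine, rose by 1.84, Ccng1, cyclin G1, by 0.91 and Phlda3, an inhibitor of Akt, by 0.79.

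Described targets of miR-199a and miR-214 showed little common change: 2 of 20 rose and 3 fell, with a median of -0.01, and 1 fell without the 2 arrays that stood apart. Cav1 read 10.75, 10.97 and 10.82 with PBS and 10.28, 10.23, 10.37, 10.20 and 10.23 with bleomycin, with no overlap. It fell by 0.59 under gapmer 3 (adjusted p = 0.0052) and by 0.94 under the control gapmer. Cav2, its partner, read 13.25, 13.33 and 13.24 with PBS and 12.89, 12.85, 12.84, 12.80 and 12.77 with bleomycin. It fell by 0.44 against 0.92, and the difference of 0.48 was called (adjusted p = 0.017) except without the first PBS control array (0.41). Fgf7, an epithelial growth factor, fell by 0.50, and Ezh2, a histone methyltransferase, rose by 0.52. Gsk3b, a kinase of Wnt signalling, was 0.24 lower, Hgf, hepatocyte growth factor, 0.04 lower and Ptgs2, cyclooxygenase 2, 0.35 lower, none of them called. Without the third bleomycin array Ptgs2 was called, at -0.48. Cav1 and Cav2 are also markers of type 1 and endothelial cells. Endothelial genes fell under gapmer 3, the type 1 scores of its PBS arrays (0.02 to 0.09) and bleomycin arrays (-0.02 to 0.09) overlapped, and the part of those cells was not tested.

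Of 14 mesothelial genes 6 fell and none rose, with a median of -0.29, among them Muc16 by 0.48. Without the second PBS array, alone or with the other array that stood apart, 3 fell. Of 17 clock genes 2 rose and 2 fell, each count was 1 without any 1 of several arrays (3 and 6 of the 8), and Nr1d1, a repressor of the clock, fell by 0.96. Of 14 adipose genes limma called none under gapmer 3, nor was any at an unadjusted p under 0.05, while 11 were lower under the control gapmer. Their score under the control gapmer was -0.36 to 0.50 with PBS and -1.53 to -1.03 with bleomycin. Under gapmer 3 it was already -1.61 to -0.67 with PBS, and -1.87 to -0.34 with bleomycin. The part of fat tissue in these values was not tested. Retn, resistin of fat cells, was 0.02 higher with PBS arrays at 9.87, 10.86 and 11.90, and its difference from the control gapmer, 2.30, lost its call without any 1 of 12 of the 16 arrays, with values from 1.80 to 2.56. Sult1e1, an oestrogen sulfotransferase, differed by 2.11 (adjusted p = 0.0035).

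**Figure D4:**
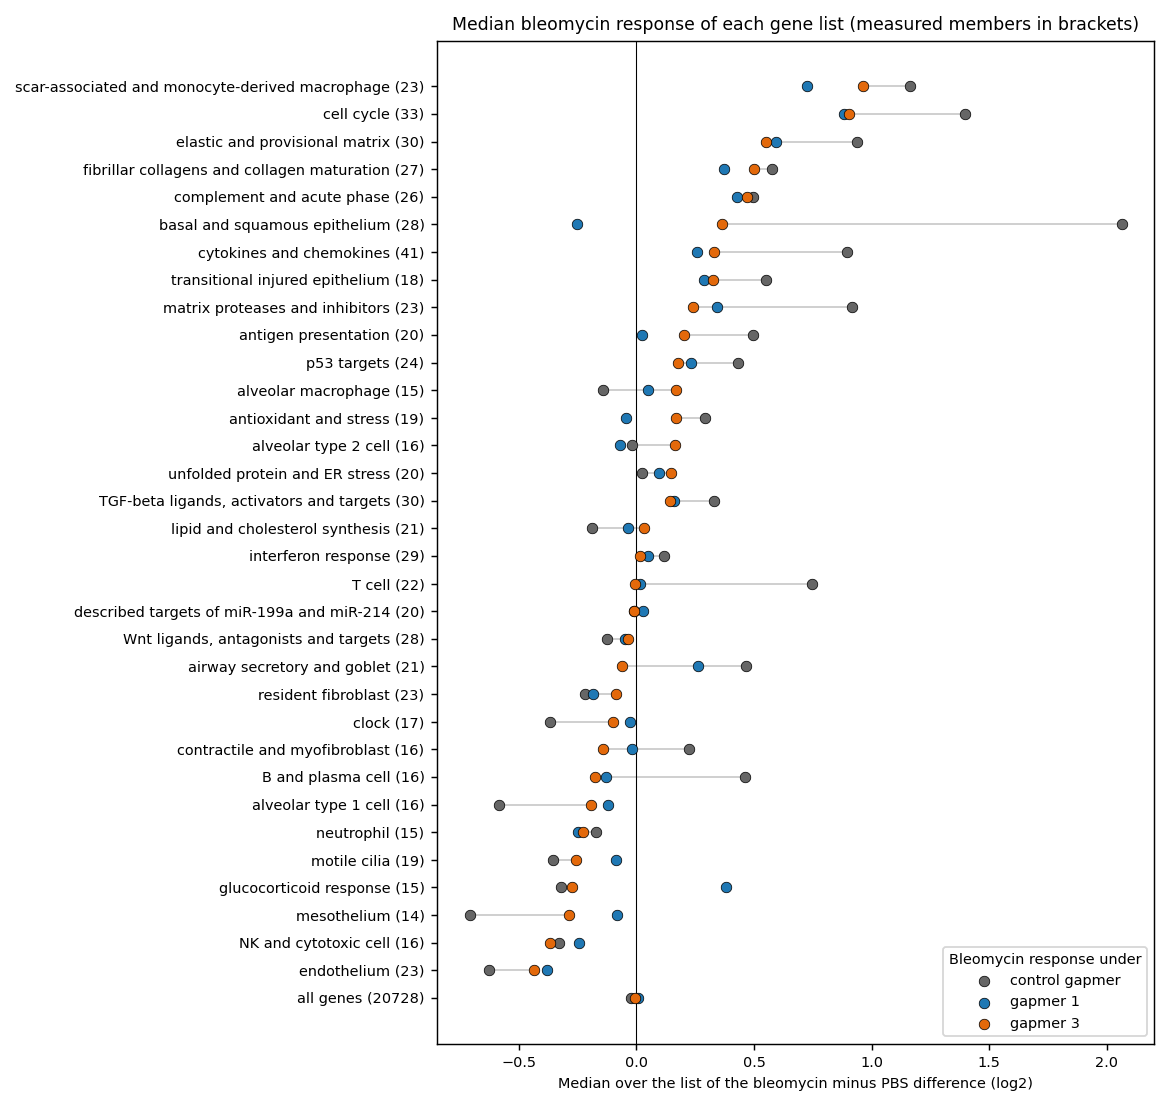
Median bleomycin minus PBS difference (log2, horizontal axis) of each gene list under the control gapmer, gapmer 1 and gapmer 3, with measured members in brackets and all genes at the bottom. Under gapmer 3 the lists of scar-associated macrophages (0.96) and of the cell cycle (0.90) have the highest medians, and the squamous list stands furthest from the control gapmer (0.37 against 2.06).

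Among the genes named by size, Fxyd4, a regulator of ion transport, rose by 2.96 and Lama1, a laminin chain, by 2.32. The largest falls include Fabp1, a fatty acid binding protein, which read 11.37, 11.35 and 11.20 with PBS and 7.92, 8.12, 9.63, 8.07 and 8.32 with bleomycin. Its fall of 2.89 was 7.42-fold, and it fell by 3.28 under the control gapmer. Cyp26b1, which breaks down retinoic acid, fell by 2.24, Lrat, which stores retinol as esters, by 2.02 and Bex2 by 2.11.

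A response of equal size under both gapmers was asked of each gene through the interval of the difference. Of 1870 genes called under gapmer 3 without overlap and with a mean level above the median gene, 1162 had a 95% interval within 1.5-fold either way. Genes with small changes meet this more readily than genes with large ones: of the 189 raised over 2-fold, 26 met it. The 10 largest such rises were Gpnmb (2.50), Lhfpl2 (1.74), Igf1 (1.70), Ctsk (1.54), Mmp2 (1.41), Apoe (1.40), Lcn2 (1.32), Clec4d (1.27), Ctsd (1.24) and Clec7a. They were picked by that interval, so its width is no finding about them. Among them are genes of lysosomes (Ctsk and Ctsd, cathepsins), a lipid carrier (Apoe), C-type lectins of myeloid cells (Clec4d and Clec7a) and the growth factor Igf1. Igf1 read 9.26, 9.52 and 9.16 with PBS and 11.08, 11.18, 10.76, 11.09 and 10.93 with bleomycin, and 11.26 to 11.45 with bleomycin and the control gapmer. The 10 features of Igf1 rose by 0.20 to 2.02 under gapmer 3. The 5 largest such falls were Scube2 (-1.12), Alox12 (-1.07), Fam178b (-1.06), Cd300e (-1.04) and Ppp1r14a.

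**Figure D5:**
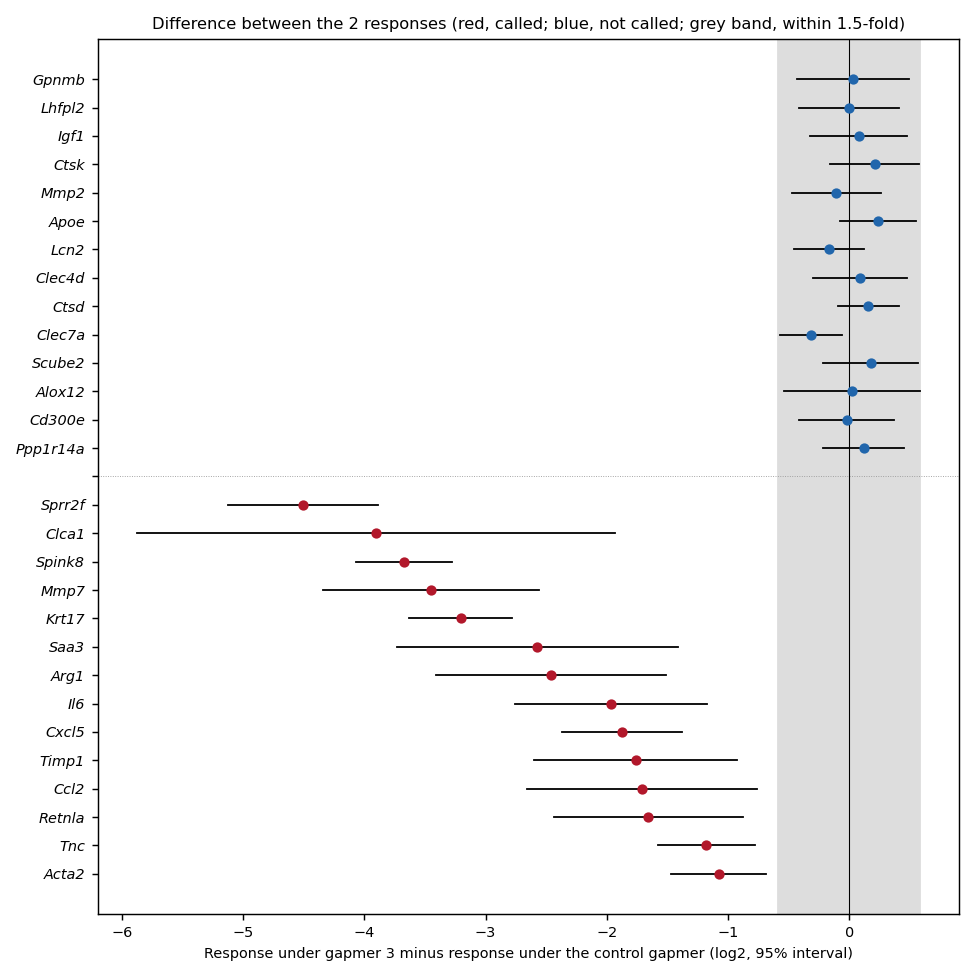
Response under gapmer 3 minus response under the control gapmer (log2, horizontal axis) with its 95% interval, for 14 genes chosen because the interval lies within 1.5-fold (grey band) and 14 named genes with a called difference (red). Gpnmb lies at 0.03 and Sprr2f at -4.51.

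Gapmers 1 and 3 were compared as reagents against the same RNA. The difference of their bleomycin responses was called for 2 genes (0.00965%), with 1151 genes at an unadjusted p under 0.05. No gene of any list was among the 2. Leaving out single arrays gave counts of 2 to 12. Spag11b, an epididymal defensin-like gene, read 9.61, 9.52 and 9.85 with PBS and gapmer 3 and 6.62, 6.51, 6.96, 6.82 and 6.50 with bleomycin. With PBS it read 8.06 to 8.21 under the control gapmer and 7.66 to 7.83 under gapmer 1, so the 3 gapmer 3 arrays were the highest. Its fall of 2.98 exceeded that under gapmer 1 by 2.04 and that under the control gapmer by 1.19. Ptprs, a receptor phosphatase, read 12.56, 12.49 and 12.58 with PBS and 13.10, 13.20, 13.23, 13.14 and 13.15 with bleomycin. It was 13.26 to 13.55 on the 16 arrays without gapmer 3, so both gapmer 3 groups were below. Its rise of 0.62 differed from that under gapmer 1 by 0.58 and from that under the control gapmer by 0.46. Both genes were also among the 7 called between the PBS groups of gapmer 3 and the control gapmer.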

How the data were processed

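Whole lung RNA was labelled with Cy3 and hybridised to one-colour Agilent arrays, per the labels' protocols, 1 array per sample. The authors deposited log2 intensities of 62976 features, and the submitters' processing notes name limma. The 24 arrays share nearly 1 distribution (largest SD of a quantile between arrays 0.0158), as quantile normalisation leaves it, and background correction is not given in the sources used here. Platform annotation gave 1 symbol to 31465 features and none to 31511. Symbols were updated through RefSeq's GRCm38.p6 table: 18550 were current, 1970 were set by accession and 250 by synonym, and 5 were kept.

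limma 3.58.1 in R 4.3.3 was fitted to all 24 arrays with 6 group means, and contrasts were tested two-sided. With 18 residual degrees of freedom, the median 95% interval of a response reached 0.21 either side, and that of a difference of responses 0.30. The number of arrays limits this precision. Scripts were tested on simulated data. Figures and tables used Python 3.11.15.

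Members, gene lists and tests were chosen with earlier results of these data known. Genes were named by a fixed rule: a list of central genes, the 12 largest called rises and falls without overlap and above the median level, up to 4 called members of each list, the 8 largest called differences in each direction from either other gapmer, and the largest changes whose difference lay within 1.5-fold. Values are given for 110 genes of it. Members of it whose call rested on few arrays were mostly left out, so the genes shown are firmer than the rule's list as a whole. Krt13, Cdk1, Glycam1, Madcam1, Rag1 and Dntt were named after their values were seen. Alternatives covered normalisation, feature choice, variance model, covariates, array weights, a replicate block and single arrays left out; removing a position trend and leaving out the 2 arrays that stood apart were added after seeing the data. Whether replicate numbers pair PBS with bleomycin samples is not known, and the main fit used no pairing. Deviations of same-numbered arrays correlated at -0.60, -0.35 and 0.31, too few values to decide it.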

Additional observations from a re-analysis of the deposited data

Results flagged for a closer look

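Among the 5 bleomycin arrays with gapmer 3, single values stood apart from the other 4 by Dixon's criterion for 11 of 110 genes examined, where chance gives about 5%. The third replicate accounted for 8 of them: it was lowest for Tnc (6.72), Grem1 (7.29), Gzma (11.85), Klrb1c (7.02), Ccr7 (11.12), Ccl2 (9.00) and Top2a (8.33) and highest for Fabp1 (9.63). The first replicate was lowest for Krt5 (8.11) and Fgf7 (9.58), and the second was highest for Synpo2 (9.02).

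The response under gapmer 3 differed from that under the control gapmer by limma's test of the difference itself. It was lower for the matrix and protease genes Tnc (-1.18), Timp1 (-1.76) and Mmp7 (-3.45) and for Acta2 (-1.08). It was also lower for Arg1 (-2.46) and Retnla (-1.66), genes of alternative activation. It was lower for the epithelial genes Cldn4 (-1.22), Krt17 (-3.21), Sprr2f (-4.51), Clca1 (-3.91), Spink8 (-3.68) and Alox12e (-3.04). It was lower for the lymphocyte genes Ccr7 (-1.12), Pdcd1 (-1.15) and Cd79a (-1.11) and for the inflammatory genes Ccl2 (-1.71), Cxcl5 (-1.88), Il6 (-1.96) and Saa3 (-2.57). It was higher for Cav2 (0.48), Retn (2.30), Sult1e1 (2.11) and Ptprs (0.46), and lower for Spag11b (-1.19). Some of these calls ended when a single array was left out. That held for 14 arrays with Ccl2, 12 with Retn, 5 with Clca1, 3 with Timp1 and 2 with Cd79a. It held for 1 array each with Cav2, Cldn4, Retnla and Saa3. From the response under gapmer 1, Ptprs differed by 0.58 and Spag11b by -2.04.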

How the results depend on the processing

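The precision of all values is limited by 3 PBS arrays per group and by probe brightness: Dnm3os, Mmp7 and Sprr2f under gapmer 3 lay near the dim end of the array. Of 91 named genes called under gapmer 3, 62 kept their direction and call under all 21 alternatives, and none of the 91 changed sign. Of 24 called differences from the control gapmer 15 kept theirs under all 28, and none changed sign. Genes whose call rested on few arrays had mostly been left out, so these shares are partly set by that choice. The third Dnm3os feature differed by 0.0128 (exact p = 0.786), and without single arrays the first differed by 0.211 to 0.367.

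The count under gapmer 3, 2875, was 4479 with array weights, 1687 without the 2 arrays that stood apart, 506 when tested against 1.2-fold, and 1986 to 2907 without single arrays. The count of differences from the control gapmer, 641, was 287 with the RNA integrity number as a covariate, 1763 with array weights, 337 without the 2 arrays that stood apart, and 246 to 1161 without single arrays. With the replicate number as a block it was 1115 and the count under gapmer 3 was 2721, and whether the numbers pair the samples is not known. The count of differences from gapmer 1, 2, was 8 with array weights and 2 to 12 without single arrays. The cause of these shifts was not tested, beyond the smaller sample where arrays were left out and the stricter hypothesis of the 1.2-fold test.

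Sign changed only for values that were not called. Under gapmer 3 Tgfb1 was 0.0180 with array weights and 0.0451 as the mean of its features, Spink8 0.0139 with array weights and 0.0268 with the block, and Retn -0.439 and -0.0066. Without single arrays Tgfb1 ranged from -0.159 to 0.0225, Spink8 from -0.0482 to 0.0316, Hgf from -0.111 to 0.0044 and Retn from -0.481 to 0.532. Among differences from the control gapmer, array weights gave Gpnmb -0.0218, Mmp2 0.0267, Lhfpl2 0.0241, Clec4d -0.0145 and Cd300e 0.0770. The covariate gave Lhfpl2 0.0598 and Alox12 -0.0458, the mean of features Scube2 -0.0017 and Alox12 -0.154, and leaving out the 2 arrays Gpnmb -0.116 and Clec4d -0.0365. Without single arrays the ranges were -0.0959 to 0.174 for Gpnmb, -0.194 to 0.0425 for Mmp2, -0.0022 to 0.181 for Igf1, -0.0663 to 0.108 for Lhfpl2, -0.0973 to 0.215 for Clec4d, -0.124 to 0.0636 for Cd300e, -0.146 to 0.226 for Alox12 and -0.0002 to 0.138 for Fam178b. The cause was not tested.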
